A study of Mus musculus with 12 samples.

Results

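Regions bound by STAT5 were examined at the mammary casein gene cluster and the whey acidic protein gene Wap in mouse embryonic fibroblasts, connective tissue cells grown out of fetuses. A region belonged to a locus when its centre lay inside one of 2 fixed windows on mouse genome build mm9. The casein window ran from 88.05 to 88.40 Mb on chromosome 5, a length of 350 kb that reaches from Csn1s1 and Csn2 to Csn3, and the Wap window ran from 6.48 to 6.59 Mb on chromosome 11, a length of 110 kb. These windows held 5 regions, of 156642 in all 3 region lists of the series analysed here, namely 2 at the caseins and 3 at Wap.

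STAT5A and STAT5B carry signals from cytokine and growth hormone receptors to the genome: Janus kinases at the receptor phosphorylate them, and the dimers then bind DNA in the nucleus. In the mammary epithelium prolactin drives this step, and STAT5 is known there as a main activator of the milk protein genes, its first name having been mammary gland factor. The question put to the fibroblast lists was whether such mammary targets gain STAT5 regions when STAT5A is overexpressed in a cell type that does not make milk.

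Chromatin was immunoprecipitated with an antibody to STAT5 and sequenced (ChIP-seq). Wild-type cells, with their own STAT5 (1 library), were compared with cells of genotype Stat5-/- in which STAT5A was overexpressed (2 libraries, of which the title of replicate 2 calls it a repeat). All cells were on the C57BL/6 background, came from fetuses of day 12.5 to 13.5 and were used at passage 9 to 10. Both groups spent 5 h without serum, followed by 45 min with 1 µg/ml growth hormone. The overexpressing cells thus lack the endogenous Stat5 that wild-type cells have, and the labels do not say how STAT5A was introduced, whether the cells are 1 clone, or whether the replicates are separate cultures. The lists hold positions of called regions and no height, and no expression was measured in this series, so the fibroblast label could not be checked against marker genes. The other 9 libraries, which include unstimulated and Stat5-/- cells, were not analysed here, so no background from cells without STAT5 stands beside the counts.

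The RefSeq order of protein-coding genes between the ends of the casein cluster is Csn1s1 (alpha-S1 casein), Csn2 (beta casein), Csn1s2a and Csn1s2b (further calcium-sensitive caseins), Prr27, Odam (an enamel-associated secreted protein), BC037156 and Csn3 (kappa casein, which stabilises the casein micelle). On the left the cluster is flanked by the sulfotransferase genes Sult1b1, Sult1d1 and Sult1e1, and on the right by Cabs1, Smr3a and Smr2. Wap encodes a major whey protein of mouse milk and lies between Tbrg4, which encodes a mitochondrial RNA-binding protein, and Ramp3, which encodes a partner of G protein-coupled receptors. This order comes from build GRCm38. No gene positions on mm9 were used here, so for none of the 5 regions is it given whether it lies in a gene, an exon, an intron or a promoter.

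The promoters of Csn1s1, Csn2 and Wap are shown because the first known STAT5 site was described in a beta casein promoter. They are RefSeq sequences of build GRCm38.p6, from 250 bases before to 50 bases after the annotated start, 5′ to 3′ on the strand of the gene, and capitals mark the core letters TTCNNNGAA of the STAT5 recognition sequence, which read the same on both strands. Positions are chr5:87665958-87666257 (plus strand) for Csn1s1, chr5:87699376-87699675 (minus strand) for Csn2 and chr11:6638600-6638899 (minus strand) for Wap on that build, and they cannot be laid over the mm9 positions given elsewhere.
Csn1s1: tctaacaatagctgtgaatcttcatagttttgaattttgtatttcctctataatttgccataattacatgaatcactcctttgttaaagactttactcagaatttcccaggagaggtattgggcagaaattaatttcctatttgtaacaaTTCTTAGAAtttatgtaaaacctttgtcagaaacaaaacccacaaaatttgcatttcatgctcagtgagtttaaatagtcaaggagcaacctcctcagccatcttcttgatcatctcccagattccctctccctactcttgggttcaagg
Csn2: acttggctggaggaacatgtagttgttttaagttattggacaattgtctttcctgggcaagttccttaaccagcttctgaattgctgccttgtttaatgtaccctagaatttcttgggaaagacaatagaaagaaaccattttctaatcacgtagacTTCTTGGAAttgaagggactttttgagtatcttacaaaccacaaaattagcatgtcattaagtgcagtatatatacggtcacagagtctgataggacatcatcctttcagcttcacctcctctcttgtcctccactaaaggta
Wap: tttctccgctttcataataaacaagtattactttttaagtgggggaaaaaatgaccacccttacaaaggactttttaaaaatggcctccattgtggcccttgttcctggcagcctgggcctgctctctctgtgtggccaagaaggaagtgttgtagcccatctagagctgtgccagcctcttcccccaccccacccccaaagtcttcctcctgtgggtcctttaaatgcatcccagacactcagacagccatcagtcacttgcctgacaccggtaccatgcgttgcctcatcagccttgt

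The Csn1s1 promoter held 1 match, TTCTTAGAA, centred 96 bases before the start, and the Csn2 promoter held 1, TTCTTGGAA, centred 89 bases before it. The Csn1s2a promoter held TTCTTAGAA after its start. No promoter was matched for Csn1s2b and Csn3. The Wap promoter had no match, which says only that these letters are not in this window. Of 32851 promoters of that length in the table, 8.30% held the letters. The mm9 sequence under the 5 regions was not used here.

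At the casein cluster the overexpressing cells had no more STAT5 regions than wild-type cells. Wild type had 1 region in the window, replicate 1 had 1 and replicate 2 had none. Both replicates exceeded wild type in 67.2% of 7528 windows of the same length tiled along the genome, and the casein window was not among those. The 3 casein genes of the set, Csn1s1, Csn2 and Csn3, therefore share a window of 350 kb that held a single region in each of 2 lists and none in the other list. The region lists themselves were 5.39 and 5.41 times as long in replicates 1 and 2 as in wild type, at 71561 and 71803 against 13278 regions, and the casein counts were not higher in the longer lists.

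The wild-type region spanned 88151487 to 88151906 of chromosome 5, a width of 420 bp, with its summit, as the authors' list gives it, at 88151595. It was wider than the median wild-type region of 379 bp, and it sat 101.7 kb inside the left edge of the window. No region of either overexpression replicate overlapped it. The nearest region centre was 99.7 kb away in replicate 1 and 822 kb away in replicate 2. Its edges are off the 10 bp grid that 87.1% of wild-type regions follow. Over the whole wild-type list, 21.4% of the off-grid regions overlapped an overexpression list, against 41.5% of the on-grid ones.

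The replicate 1 region lay at 88051813 to 88052230, was 418 bp wide, near that list's median of 398 bp, and had its summit at 88052035. Its centre was only 2.02 kb inside the left edge of the window, on the side of Csn1s1 and the sulfotransferase genes. Neither wild type nor replicate 2 had a region overlapping it, the nearest centres being 51.7 kb and 839 kb away. It is the member closest to a window edge. The nearest region outside that edge was the wild-type region at 88000183 to 88000500, 49.7 kb away and 318 bp wide, which no overexpression region overlapped either. With the window narrowed by 5 kb on each side, a setting chosen after this position was seen, both overexpression replicates had 0 regions at the caseins. Thus no site at the casein cluster was found in more than 1 list. Over the whole lists, 6.55% of replicate 1 regions overlapped wild type and 51.9% overlapped replicate 2. Of wild-type regions, 32.3% overlapped replicate 1 and 29.9% overlapped replicate 2. Regions without such overlap are thus common in both lists.

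**Figure D1:**
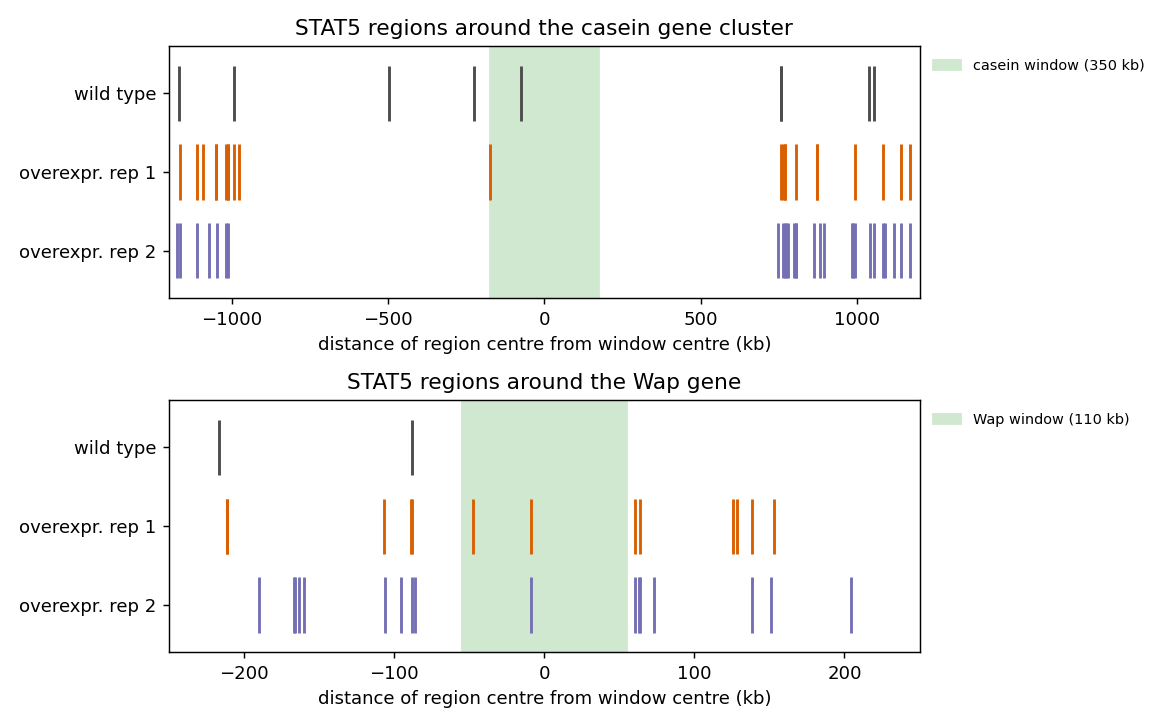
Positions of STAT5 regions around the casein window (top) and the Wap window (bottom), as the distance of each region's centre from the window's centre in kb. Each vertical line is 1 region of the named list and the green band is the window. The casein band holds 1 line in wild type, 1 at the left edge in replicate 1 and none in replicate 2. The Wap band holds none in wild type and 1 line at the same place in both overexpression replicates. Replicate 1 has a further line there, near the left edge of the band.

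Set against the genome, the shortfall at the caseins was large in the overexpressing cells. Genome-wide density, over the autosomes and chromosome X, was 0.503 regions per 100 kb for the wild-type list, 2.71 for replicate 1 and 2.72 for replicate 2. The casein window had 0.286 per 100 kb for wild type and the same for replicate 1, and 0 for replicate 2. The overexpressing cells thus had 0.143 ± 0.202 regions per 100 kb (SD, n = 2) at the caseins, against 2.72 ± 0.00558 over the genome. At genome density 1.76 regions would lie in such a window for wild type, 9.49 for replicate 1 and 9.52 for replicate 2.

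Relative to the genome, the wild-type density of the casein window was 0.568 (95% exact Poisson interval 0.0144 to 3.16), so with 1 region it cannot be told from the genome's. It was 1.13 for the wider part of the list and 1 against the median tiled window. In replicate 1 the ratio was 0.105 (interval 0.00267 to 0.587). These intervals cover counting error only and are too narrow, since regions cluster. Chromosome 5 as a whole was somewhat sparse, with 2.28 and 2.43 regions per 100 kb in replicates 1 and 2 and 0.479 in wild type, and measured against chromosome 5 the ratios in the casein window were 0.596 in wild type and 0.125 in replicate 1.

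Such low counts were also found elsewhere along the genome. When the autosomes and chromosome X were cut into 7528 windows of 350 kb, the median window held 1 region in wild type and 7 in each overexpression replicate. As few regions as at the caseins, 1 or none, were found in 55.4% of windows in wild type and 28.8% in replicate 1, and 20.7% of windows were empty in replicate 2. In 19.1% of windows (1440) both replicates had no more than the casein counts, but these include 833 windows with no region in any list, and unmappable stretches or assembly gaps were not removed. Among the 5146 windows with a wild-type region the share was 9.54%. Among windows with at least 1 region in any list, 10.8% were empty in replicate 2. Neither replicate exceeded wild type in 22.5% of windows, as at the caseins, and these again include the 833 windows with no region in any list. Of the 1791 windows that, like the casein window, had 1 wild-type region, 303 (16.9%) had as few regions as the caseins in both replicates, and the median over those 1791 was 6 regions in either replicate. The casein counts of both replicates are therefore on the low side of their distributions without standing outside them.

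**Figure D2:**
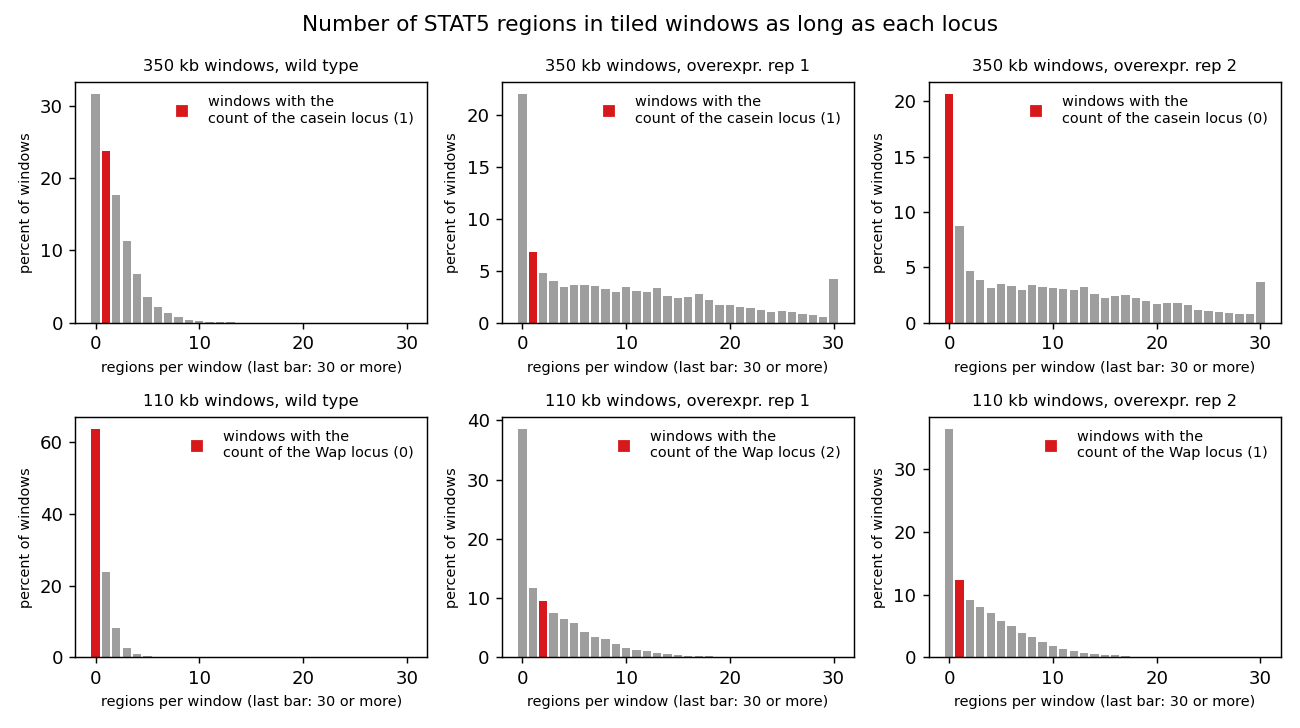
Percent of tiled windows (vertical axis) by the number of STAT5 regions they hold (horizontal axis), for windows of 350 kb (top, the casein length) and 110 kb (bottom, the Wap length), in wild type and overexpression replicates 1 and 2. The red bar marks windows with the count of the locus, which lies at 1, 1 and 0 regions for the caseins and at 0, 2 and 1 for Wap. The casein counts of both replicates are under their median of 7, whereas the wild-type casein count equals its median of 1. The Wap count of replicate 1 is above its median of 1, and that of replicate 2 is under its median of 2.

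The empty stretch around the caseins extended well past the genes. Replicate 2 had no region centre between the region at 87213087 to 87213609 and the one at 88973506 to 88973871 on chromosome 5, a distance of 1760 kb between centres. Only 73 of the 71749 distances between neighbouring regions in that list (0.102%) were as long, where the median was 11.4 kb. In replicate 1 the longest stretch over the window was 931 kb, from its casein region to a region at 88982933 to 88983680, and 0.389% of its 71541 distances were as long. A further stretch of that list ran left from the casein region to a region at 87247133 to 87247490, whose centre lay 803 kb outside the window. In wild type the stretch from its casein region to the next region on the right was 831 kb, a length reached by 3.45% of its distances, whose median was 93.2 kb.

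Stretches of this kind take up more of the genome than their number tells. Distances of 1760 kb or more made up 7.35% of the genome length in replicate 2, and distances of 931 kb or more made up 18.2% in replicate 1. In wild type, distances of 831 kb or more made up 24.7%. Within the 1.76 Mb that were empty in replicate 2, wild type had 4 regions and replicate 1 had 4, where the genome densities would give 8.86 and 47.8. Of those 4 regions in replicate 1, 3 lay within 34.0 kb of the left end, the outermost of them overlapping the replicate 2 region that bounds the stretch, and the other was the casein region. The wild-type regions were spread more evenly, at 18.7, 513, 787 and 938 kb from the left end. The share of this stretch to which reads can be mapped was not tested.

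**Figure D3:**
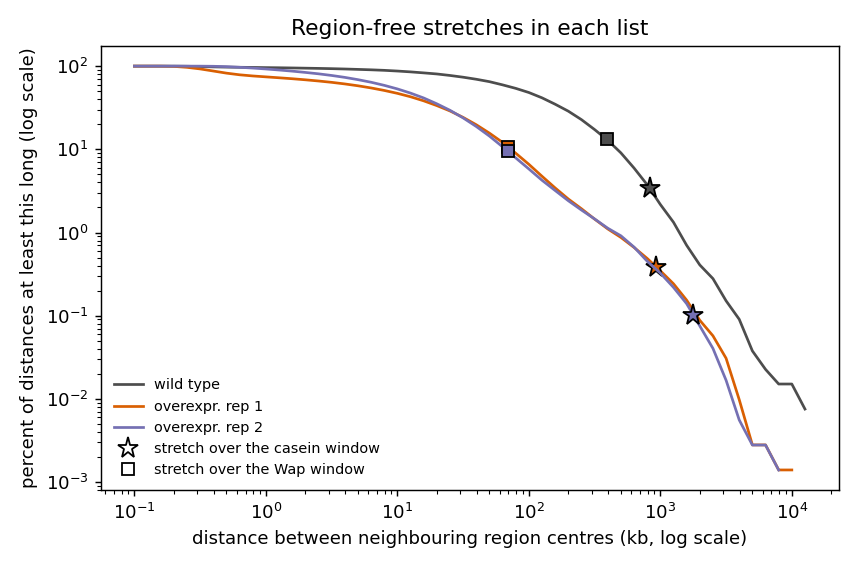
Percent of the distances between neighbouring region centres (vertical axis, log scale) that are at least as long as the distance on the horizontal axis (kb, log scale), with 1 line for each list. Stars mark the longest stretch over the casein window and squares that over the Wap window. The casein stars lie at 831, 931 and 1760 kb in wild type, replicate 1 and replicate 2, lengths reached by 3.45%, 0.389% and 0.102% of distances. The Wap squares of both replicates lie at 69.2 kb.

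Further out the regions returned. The 1 Mb to the left of the casein window held 4 wild-type regions, 10 of replicate 1 and 7 of replicate 2, and the 1 Mb to the right held 4, 11 and 21. In replicates 1 and 2 the left flank had 0.369 and 0.257 of the genome's density. The right flank had 0.405 and 0.772 of it. Both flanks were thus below the genome's density in each replicate, though the right flank of replicate 2 was near that of wild type. In wild type both flanks had 0.795 of the genome's density. With the window widened by 2000 kb on each side, replicates 1 and 2 still had only 0.559 and 0.499 of their genome densities. The nearest site found in both replicates lay 589 kb right of the window, at 88988943 to 88989381 in replicate 1. The nearest site found in all 3 lists lay 1176 kb to the right, at 89576133 to 89576450 in wild type, 89576023 to 89576651 in replicate 1 and 89576107 to 89576589 in replicate 2.

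At Wap the overexpressing cells had regions where wild type had none. Wild type had 0 regions in the 110 kb window, replicate 1 had 2 and replicate 2 had 1. Both replicates were therefore above wild type, and they were so in 49.3% of the 23971 windows of 110 kb. Those windows include 6125 (25.6%) with no region in any list, so among the others a gain of this kind was more common still. Given no wild-type region, which held for 15281 windows, the median window had 1 region in either replicate.

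A single site in the Wap window was found in both overexpression replicates. In replicate 1 it spanned 6525813 to 6526560 of chromosome 11, a width of 748 bp, with its summit at 6526215. In replicate 2 it lay at 6526024 to 6526375 and was 352 bp wide. The replicate 2 region lay wholly inside that of replicate 1, their centres were 13 bp apart, and the replicate 1 summit fell inside the replicate 2 region. The site stood 46.2 kb from the left edge of the window, on the Tbrg4 side of the window's centre. Whether it belongs to Wap or lies at the start of Tbrg4 or in another neighbouring gene was not determined, and it is the only site behind the gain seen in both replicates. Its nearest wild-type centre was 79.3 kb away.

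The site differed in breadth between the lists. Within replicate 1 it was one of the wider regions, since 94.5% of that list's regions were no wider, and within replicate 2 it was slightly below the median of 378 bp, 43.5% being no wider. The replicate 1 region was 2.13 times as wide as that of replicate 2. The overlap of 352 bp covered 47.1% of the former, so the site is no longer counted as shared when at least 50% of both regions must overlap. The 2 lists were not made in the same way, since 100% of replicate 1 regions and 1.95% of replicate 2 regions follow the 10 bp grid. Widths therefore cannot be compared between them as a measure of binding.

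The other Wap region of replicate 1, at 6487063 to 6487241, was 179 bp wide with its summit at 6487165, and only 7.47% of that list was as narrow. It lay 7.15 kb inside the left edge of the window. Neither wild type nor replicate 2 overlapped it, and their nearest centres were 40.3 and 38.2 kb away. Of the 3 regions at Wap, 2 thus belong to the shared site and 1 was seen in replicate 1 alone. Over the whole lists, 51.9% of replicate 1 regions overlapped replicate 2 and 43.1% the other way, so 1 of 2 and 1 of 1 at Wap do not set it apart. Only 6.55% of replicate 1 and 5.25% of replicate 2 regions overlapped wild type, so the lack of such overlap at Wap is usual too.

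Over the Wap window as given, the density was below the genome's in both replicates. That side depends on the setting, since the mean ratio of 0.502 became 1.25 against the median tiled window and 1.23 with 50 kb added on each side. It was 1.82 regions per 100 kb in replicate 1 and 0.909 in replicate 2, or 1.36 ± 0.643 (SD, n = 2), against 2.72 ± 0.00558 over the genome and 0 in wild type. The ratio to the genome was 0.670 (95% exact Poisson interval 0.0812 to 2.42) in replicate 1 and 0.334 (interval 0.00846 to 1.86) in replicate 2, so neither could be told from the genome's density at these counts. At genome density 2.98 and 2.99 regions would lie in 110 kb for replicates 1 and 2 and 0.554 for wild type. As many regions as at Wap were found in 49.6% of windows in replicate 1 and 63.5% in replicate 2. An absence like that of wild type was found in 63.7% of windows, so it too is the usual state of 110 kb in that list.

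Just outside the Wap window regions were denser. A site on the right, 5.35 kb beyond the edge, was found in both replicates, at 6595173 to 6595530 in replicate 1 (358 bp) and 6595159 to 6595547 in replicate 2 (389 bp). Next to it, 8.46 kb beyond the edge in replicate 1, a region of 508 bp at 6598203 to 6598710 overlapped a replicate 2 region of 283 bp at 6598284 to 6598566. Both lie on the Ramp3 side, and wild type had no region there.

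On the left, 33.1 kb outside the window, stood the site nearest to Wap that all 3 lists share. Wild type had a region of 248 bp there, at 6446733 to 6446980. Replicate 1 had neighbouring regions of 469 bp at 6446123 to 6446591 and of 658 bp at 6446603 to 6447260, the second of which overlapped that of wild type. Replicate 2 had a region of 1496 bp at 6445805 to 6447300 that covered all of these. It is the only site within 50 kb of the Wap window that wild type held.

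With 50 kb added on each side, the counts at Wap became 1 for wild type, 6 for replicate 1 and 8 for replicate 2. Those correspond to 0.946, 1.05 and 1.40 times the genome densities. The same widening of the casein window gave 2, 1 and 0 regions, or 0.883, 0.0819 and 0 times the genome densities. Hence the casein neighbourhood stayed sparse in the overexpressing cells as the window grew by up to 500 kb on each side. At that width replicate 1 still had 1 region and replicate 2 none in 1350 kb. Wild type was sparse there too, at 0.467 and 0.442 of its genome density with 250 and 500 kb added. By contrast, both replicates were above the genome's density at Wap once 50 kb had been added. With 250 kb added, replicate 1 was at 0.846 and replicate 2 at 1.21 of it. Chromosome 11 as a whole was denser than the genome, with 2.86 and 3.33 regions per 100 kb in replicates 1 and 2. Measured against chromosome 11, the ratios at Wap with 50 kb added were 0.999 in replicate 1 and 1.14 in replicate 2. A test of this difference between the loci was not possible, since each is 1 place in the genome.

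**Figure D4:**
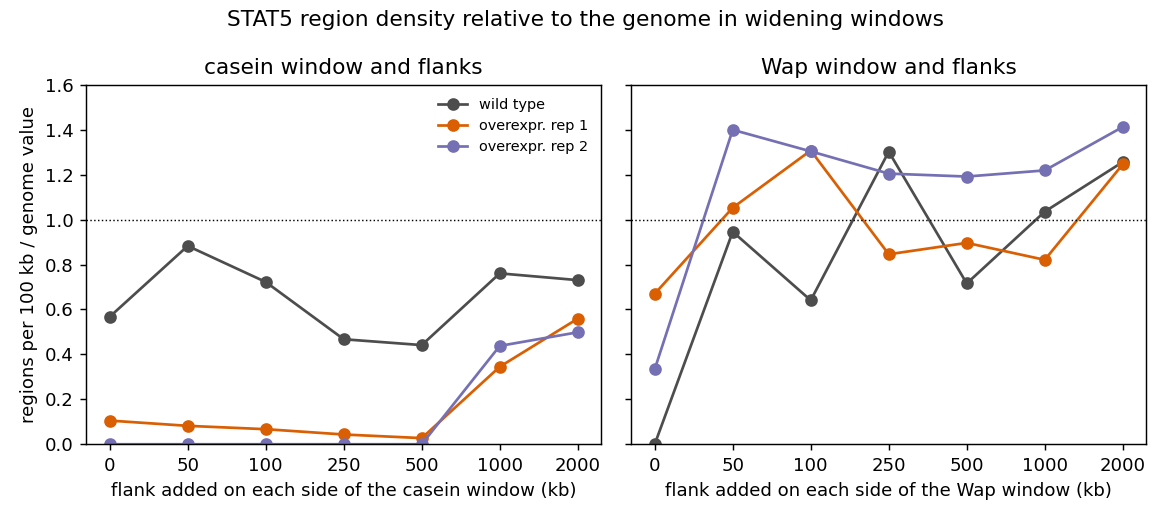
Density of STAT5 regions relative to the genome (vertical axis, dotted line at the genome's own value of 1) in the casein window (left) and the Wap window (right) after widening by 0 to 2000 kb on each side (horizontal axis, not to scale), in each list. The casein lines of both replicates stay at or under 0.105 out to 500 kb, where that of wild type is at 0.442. The Wap lines of both replicates are above 1 at 50 kb, after which that of replicate 1 drops to 0.846 at 250 kb.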

How the data were processed

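The data are lists of STAT5 regions from ChIP-seq of growth hormone-stimulated fibroblasts, deposited by the authors as positions on mm9. They give a start and end and, for wild type and replicate 1, a summit, with no height, score, p-value or read count. Replicate 2 was called with MACS, per the file headers and region names. For the remaining lists the caller, and for every list the aligner, control and threshold, is not given in the sources used here. Depth per library is unknown, which leaves the number of regions in each list without a measure of precision. Both repeat libraries of overexpressing cells, unstimulated and stimulated, name the list of replicate 2 in their labels, and its track name was taken to mean the stimulated one.

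Positions were treated as BED intervals and printed counting from 1. Regions were assigned by centre, and regions were shared if they overlapped by 1 bp or more. A region was called on-grid when its deposited start ends in 2 and its end in 0 or 1. By this rule 100% of replicate 1 and 1.95% of replicate 2 regions were on-grid. Differences between the replicates, and the SD over them, may therefore include how the lists were made. Densities used 2638 Mb, the summed ends of the last region on 19 autosomes and chromosome X. Windows of equal length were tiled from each chromosome's start, without removing assembly gaps or sequence that cannot be mapped. No test between genotypes was made, since wild type has 1 list. Named were the members, their RefSeq neighbours, every region in a window and the nearest regions outside it. Promoter letters were also searched in other milk and feedback genes. Members and lists were chosen with earlier results of these data known. Alternatives were other window edges, assignment rules, denominators, list parts and overlap rules. Counting was tested on simulated data. Tools were Python 3.11.15, numpy 2.4.6, pandas 2.3.3, scipy 1.17.1, matplotlib 3.10.9 and bedtools 2.31.1.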

Additional observations from a re-analysis of the deposited data

How the results depend on the processing

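Of 72 alternative values for 16 results, 52 stayed within the tolerance set for them and 20 moved. Tolerance was the counting interval for a wild-type ratio and the SD for the mean ratio of overexpressing cells. For counts of regions and of shared members it was a limit on the fold change. For shares of windows it was the 95% binomial interval over the tiled windows. With 7528 or 23971 windows that interval is narrow, so small changes in a share were labelled as moved. The wild-type Wap ratio went from 0 to 0.946 with the widened window and still counted as within tolerance. Some values could not move: leaving out either replicate always stays within that SD, and lists of equal length leave wild type unchanged. A count of 0 also stays 0 in part of a list. The 52 thus overstate stability. With windows widened by 50 kb, the casein count of wild type went from 1 to 2, and the Wap counts from 0 to 1 for wild type, from 2 to 6 for replicate 1 and from 1 to 8 for replicate 2. Keeping the wider part of each list left 1 and 0 regions at Wap in replicates 1 and 2, and narrowing the windows by 5 kb, a choice made after seeing the data, left 0 at the caseins in replicate 1. The mean density at Wap relative to the genome in overexpressing cells, 0.502, was 0.903 with lists of equal length. Of the Wap regions, only the 748 bp one of replicate 1 is left in those lists, so that mean comes from replicate 1 alone. Against the median tiled window the mean was 1.25, and with the widened window it was 1.23, on the other side of 1. The wild-type casein ratio, 0.568, was 1.13 for the wider part and 1 against the median tiled window, within its counting interval. Without either replicate in turn, the mean ratio of overexpressing cells at Wap was 0.334 to 0.670, and that at the caseins, 0.0527, was 0 to 0.105. Over all 8 alternatives the casein value was 0 to 0.105. Among windows with at least 1 region in any list, the shares as sparse as the caseins were 49.9% for wild type, 19.9% for replicate 1 and 10.8% for replicate 2, and shares with as many regions as Wap were 66.6% and 85.3% in the replicates. On the same chromosome the casein shares were 31.3% and 21.8% and the Wap shares 55.7% and 71.6% in replicates 1 and 2. Of 5 member regions 2 overlapped another list, and 0 did with at least 50% of both regions. The cause of these moves was not tested, except that narrower or wider windows and shorter lists change counts by construction. For wild type at Wap no ratio to the median tiled window exists, because that median is 0. No paired analysis was possible because wild type has 1 library and only that replicate number is common to both groups. Depth is unknown, and an absent region may lie below the authors' calling threshold.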

Other observations

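The letters TTCNNNGAA were also counted in RefSeq promoters of other milk and STAT5 feedback genes, a description of sequence with no measurement of binding. Of 12 milk genes listed, 8 had a promoter in the table and 4 of these held the letters, namely Csn1s1, Csn2, Csn1s2a and Glycam1, where 8.30% of all 32851 promoters in the table did. Lalba, Mfge8, Wfdc18 and Wap did not hold them. Of 3 feedback genes with a promoter, Cish held 2 matches and Socs3 held 1, while Socs1 had none. No region list was read at these other genes, since their positions on mm9 were not used here.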
